A study of Equus caballus with 8 samples.

Results

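Endothelial cells line the blood and lymphatic vessels of the uterus, and 36 genes known as markers of these cells were followed in the endometrium of mares. They were chosen, with earlier results of these data known, as a list of vascular and lymphatic endothelial genes and matched to horse Gene IDs by symbol. Of the 36, 34 were found among the 24942 Gene IDs of the count table. SOX7 and SOX18 matched no Gene ID and were not analysed here. Each of the 34 had more than 10 counts in total, so 0 were dropped for low totals, and 32 passed the low-count filter of the test.

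The tissue came from 4 normally cycling Bavarian Warmblood mares, and each mare gave 1 transcervical biopsy in each of 2 states, in random order. The cyclic group (4 libraries) was sampled on day 12 of the oestrous cycle, and the pregnant group (4 libraries) on day 12 of pregnancy, after ultrasonography had shown an embryonic vesicle. Ovulation was induced in all mares with 1500 IU of human chorionic gonadotropin, insemination is described for all mares, and the uterus was flushed before the biopsy. The 2 states are the cycle and pregnancy of intact animals, both with ovulation induced, and the ages of the mares were not stated. A biopsy holds epithelium, stroma, vessels and blood cells together. EPCAM, a surface protein of epithelium, was at 466 to 568 CPM (counts scaled to library size and then between libraries by the TMM method) over the 8 libraries. A list of 22 epithelial genes summed to 2940 to 3589 CPM, and the 34 endothelial genes to 1486 to 3026 CPM. Such sums depend on which genes are listed and do not measure the share of a cell type.

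Neighbouring endothelial cells are joined by adherens junctions built on VE-cadherin and by tight junctions built on claudin 5. The receptor kinases TIE1 and TEK respond to angiopoietins and keep the vessel wall quiet or open it for growth. ETS factors such as ERG and FLI1, together with SOX, TAL1 and LMO2, turn on endothelial genes. In the mare, the endometrial vessels supply a conceptus that stays free in the uterine lumen for weeks before it attaches, so these vessels lie on the maternal side of the exchange.

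Total counts ran from 9.81 to 16.7 M per library. The pregnant library of mare 1 was the shallowest, and the other 7 held at least 15.5 M. Counts in the 2 states were compared gene by gene with edgeR's quasi-likelihood test, with the mare as a block and p-values adjusted by the Benjamini-Hochberg method over 15342 genes. The words rose and fell are kept for genes whose adjusted p was below 0.05.

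Endothelial genes were higher in pregnancy almost throughout the list. Of the 32 tested, 25 rose and 0 fell, which is 78.1% of them, against 8.53% of all tested genes that rose and 8.19% that fell. The 25 rises ran from 1.30-fold to 3.00-fold, with a median of 1.77-fold, and 3 of them reached at least 2-fold (1.75% of all genes did). The median log2 fold change was 0.70 over the 32 genes and 0.00422 over all tested genes. In 21 of the 32, each pregnant library lay above each cyclic library (6.0% of all genes), and 26 were higher in pregnancy in 4 of 4 mares (19.2% of all genes). In this bulk tissue, more endothelial cells and more RNA per endothelial cell cannot be told apart. By DESeq2 too 0 fell, and 0 were lower at an unadjusted p under 0.05 in edgeR. Without the mare as a block, 16 of the 25 passed. Scaled by library totals in place of TMM, 26 of the 32 rose and 0 fell, while over all genes 1416 rose and 864 fell, against 1309 and 1256 with TMM.

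**Figure D1:**
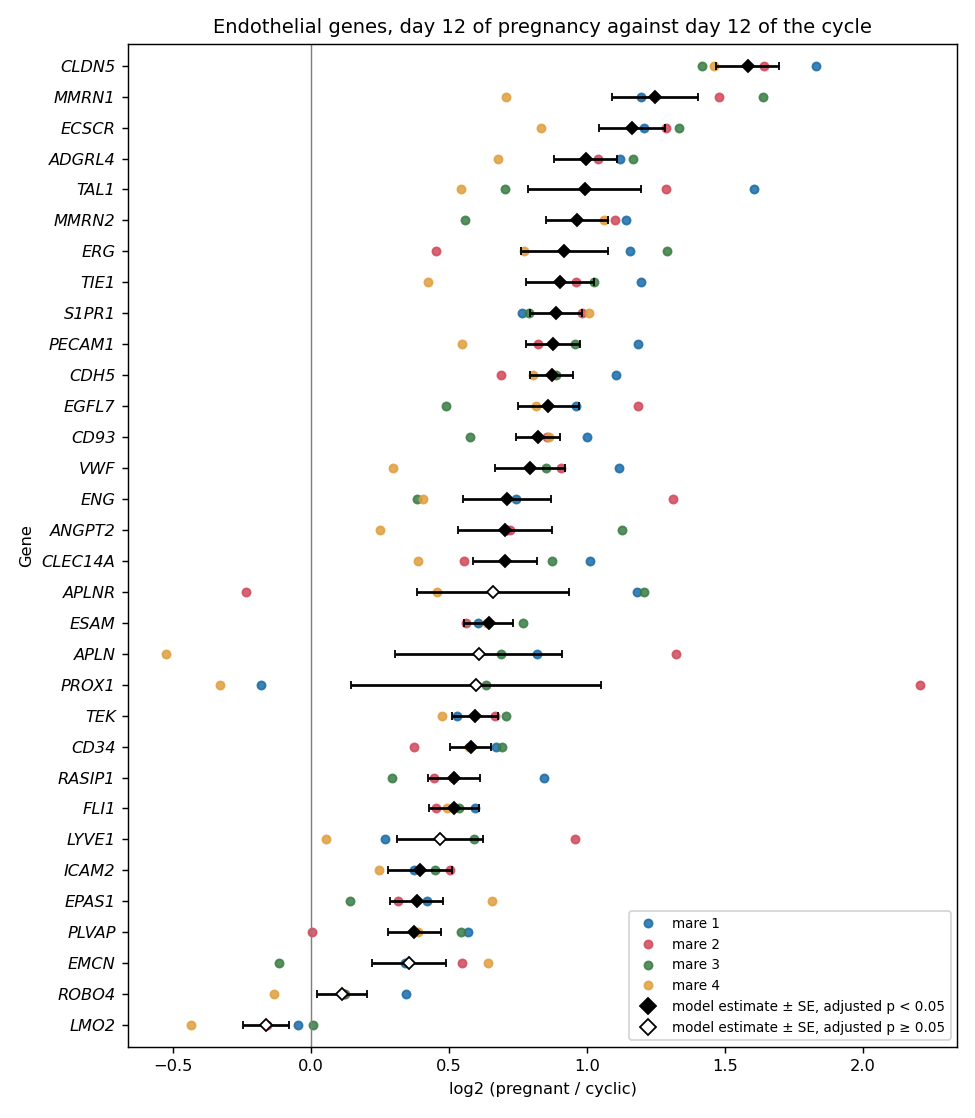
Log2 ratio of pregnant to cyclic level for the 32 tested endothelial genes, with 1 coloured point per mare and a diamond for the model estimate ± SE (filled where adjusted p was below 0.05). The 25 filled diamonds lie right of 0, from ICAM2, EPAS1 and PLVAP near 0.4 to CLDN5 at 1.58, and ROBO4 and LMO2 lie beside 0.

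Among the junction and adhesion genes, 5 of 6 rose. CLDN5 (Gene ID 102149057), the claudin of endothelial tight junctions, had 6.57, 4.78, 8.19 and 4.90 CPM in the cyclic libraries of mares 1 to 4 and 23.4, 14.9, 21.9 and 13.5 CPM in their pregnant libraries. The lowest pregnant value thus lay above the highest cyclic one. Its log2 fold change of 1.58 ± 0.11 (SE; adjusted p = 1.58e-04) was the highest of the 32, and it was 2.67-fold to 3.56-fold higher in each mare. CDH5 (100065253), which encodes VE-cadherin, had 55.6, 43.7, 55.8 and 51.1 CPM in cyclic libraries and 119.6, 70.4, 103.3 and 89.3 CPM in pregnant ones. It rose by 0.87 ± 0.08 on the log2 scale (adjusted p = 3.71e-04), with mare 2 lowest in both states.

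PECAM1 (100064309), the adhesion molecule CD31 of endothelium, platelets and leukocytes, had 62.3 to 78.9 CPM in the cycle and 110.2 to 160.0 CPM in pregnancy (log2 fold change 0.88 ± 0.10, adjusted p = 8.83e-04). ESAM (100072264), an immunoglobulin-like protein of endothelial tight junctions, had 14.1 to 17.9 and 21.9 to 27.2 CPM, and its fold was 1.48 to 1.71 over the 4 mares. ICAM2 (100064400), a ligand of leukocyte integrins, made a smaller step, from 7.56 ± 1.02 to 9.98 ± 1.72 CPM (SD, n = 4; adjusted p = 0.0446), and the groups overlapped. The ICAM2 call passed in 4 of 12 alternative analyses and was lost without any 1 of the mares. EMCN (102150017), the surface sialomucin endomucin, had 12.2 ± 1.30 and 15.8 ± 3.08 CPM (adjusted p = 0.105). It was higher in 3 of 4 mares, with mare 3 at 13.9 CPM when cyclic and 12.8 CPM when pregnant, and it passed without mare 3 (adjusted p = 0.0288).

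The junction genes did not all move by the same factor. The reads of CLDN5 per read of CDH5, a ratio that library scaling does not touch, were 0.118, 0.109, 0.147 and 0.0958 in the cyclic libraries of mares 1 to 4. In pregnancy the ratio was 0.195, 0.211, 0.212 and 0.151, higher in 4 of 4 mares, by 0.72 ± 0.18 on the log2 scale (SD, n = 4). This pair was chosen after its values were seen, and no test was made.

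All 3 tested members of the angiopoietin and Tie axis rose. TEK (100066963), the receptor kinase of angiopoietins also called TIE2, had 23.8, 21.1, 21.2 and 22.6 CPM in cyclic libraries and 34.3, 33.5, 34.7 and 31.3 CPM in pregnant ones. Both groups were narrow and well apart (log2 fold change 0.60 ± 0.08, adjusted p = 0.00202). TIE1 (100066563), its co-receptor, had 19.6, 16.7, 23.4 and 21.0 CPM in cyclic libraries and 45.0, 32.4, 47.7 and 28.2 CPM in pregnant ones (0.90 ± 0.12, adjusted p = 0.00199). Mare 4 showed the smallest step, 1.34-fold against 1.95-fold to 2.29-fold in the others. Reads of TIE1 per read of TEK went from 0.827, 0.791 and 1.10 to 1.31, 0.969 and 1.37 in mares 1 to 3 and from 0.931 to 0.900 in mare 4, a pair likewise chosen after its values were seen.

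ANGPT2 (100051890), the angiopoietin that endothelial cells store and release, had 3.22, 5.59, 4.35 and 5.08 CPM in cyclic libraries and 5.27, 9.22, 9.50 and 6.04 CPM in pregnant ones. It was higher in 4 of 4 mares, but the groups overlapped (log2 fold change 0.70 ± 0.17, adjusted p = 0.0212). The ANGPT2 call was lost without mare 1, 2 or 3 and without the mare block (adjusted p up to 0.160). ANGPT1 (100056482), the angiopoietin made by cells around the vessel, gave 1 to 7 counts per library and was not tested. A further angiopoietin, ANGPT4, is not a member and was placed among the partners of the member proteins. It had 1450 to 3728 counts per library, more than ANGPT2 with 50 to 169, so the members do not cover the axis.

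**Figure D2:**
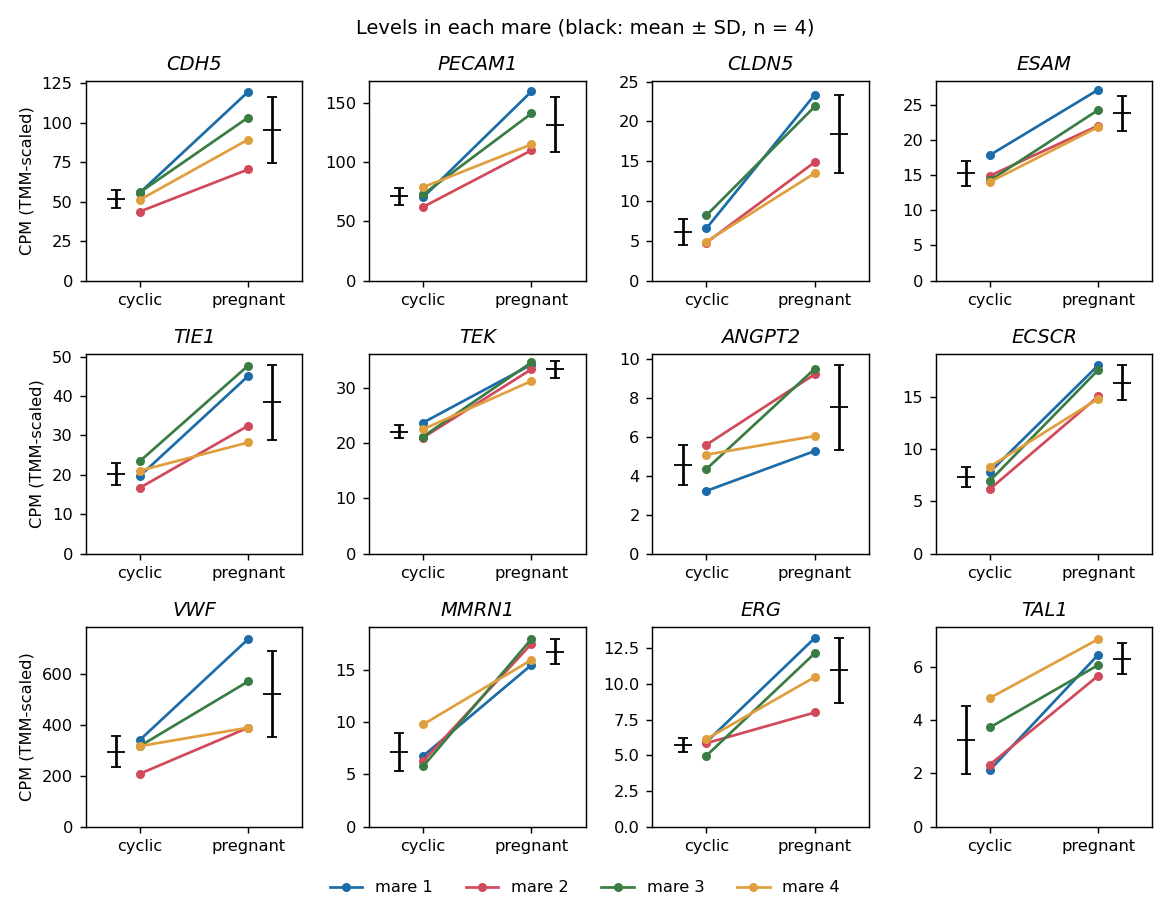
TMM-scaled CPM of 12 endothelial genes in the cyclic and pregnant libraries, with 1 line per mare and the mean ± SD (n = 4) in black beside each state. Every line rises; for all of these genes but ANGPT2 the lowest pregnant value lies above the highest cyclic one, and TEK shows narrow groups in both states.

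Of the 10 other surface receptors and their ligand, 7 rose. ECSCR (100072509), a sialomucin of endothelial filopodia, had 7.79, 6.16, 6.95 and 8.30 CPM in cyclic libraries and 18.0, 15.0, 17.6 and 14.8 CPM in pregnant ones (log2 fold change 1.16 ± 0.12, adjusted p = 5.59e-04). ADGRL4 (100052983), an adhesion receptor of growing vessels, had 6.96 to 11.1 CPM in the cycle and 15.1 to 19.5 CPM in pregnancy (1.00 ± 0.11, adjusted p = 8.59e-04). S1PR1 (100050049), the receptor through which sphingosine 1-phosphate tightens the vessel wall, had 11.0 to 12.6 and 20.4 to 24.8 CPM (0.89 ± 0.09, adjusted p = 6.43e-04). In none of these genes did the groups overlap.

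CD93 (100059201) and CLEC14A (100060344), C-type lectin-like receptors that bind the vascular matrix protein MMRN2, rose 1.77-fold and 1.63-fold. CD34 (100051718), a sialomucin of endothelium and blood progenitors, rose 1.49-fold, with an adjusted p of 0.00128, and of 0.0520 in the fit with no mare block. ENG (100070421), the TGF-beta co-receptor endoglin, had 150.8, 100.6, 134.0 and 114.0 CPM in cyclic libraries and 252.5, 249.7, 175.0 and 151.0 CPM in pregnant ones. Its step was larger in mare 2 (2.48-fold) than in mare 3 (1.31-fold), and the call (adjusted p = 0.0293) was lost without mare 1 (adjusted p = 0.125), also in the fits with no mare block or no low-count filter.

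The apelin pair did not pass. APLNR (100066889), the apelin receptor, had 17.7, 19.4, 13.0 and 14.4 CPM in cyclic libraries and 40.2, 16.5, 30.0 and 19.8 CPM in pregnant ones (adjusted p = 0.184). Mares 1 and 3 showed 2.27-fold and 2.31-fold higher values, and mare 2 a lower one. APLNR passed in DESeq2 (adjusted p = 0.0332) and without mare 2 (0.0102), the range over its alternatives reaching 0.408. APLN (102149746), its ligand apelin, had 1.01 to 1.68 CPM in the cycle and 0.947 to 2.70 CPM in pregnancy, where mare 4 was the 1 mare with a lower value (adjusted p = 0.208).

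ROBO4 (100072289), a roundabout receptor of endothelium that stabilises vessels, stood apart from the other members. It had 225.6, 256.2, 175.7 and 786.3 CPM in the cyclic libraries of mares 1 to 4 and 286.6, 279.1, 191.1 and 717.4 CPM in the pregnant ones. Mare 4 was far above the other mares in both states, and within each mare the 2 states lay close together (log2 fold change 0.11 ± 0.09, adjusted p = 0.438). The mares differed in ROBO4 with adjusted p = 9.30e-05, the smallest among the 32 genes, from the 3 mare terms of the same model. No other gene overlaps ROBO4 in the RefSeq gene table. In the same libraries of mare 4, CDH5 was at 51.1 and 89.3 CPM, inside the range of the other mares.

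All 4 tested genes of secreted and vessel wall proteins rose. VWF (100059472), the von Willebrand factor that tethers platelets, had 340.1, 207.4, 316.1 and 316.2 CPM in cyclic libraries and 737.3, 388.7, 570.8 and 389.0 CPM in pregnant ones. Its fold was 2.17 in mare 1 and 1.23 in mare 4 (log2 fold change 0.79 ± 0.13, adjusted p = 0.00408), and 0.0985 was its adjusted p in the fit with no mare block. MMRN1 (100053317), multimerin 1 of platelets and lymphatic endothelium, had 6.76, 6.28, 5.77 and 9.79 CPM in cyclic libraries and 15.5, 17.5, 18.0 and 16.0 CPM in pregnant ones. It rose by 1.25 ± 0.16 on the log2 scale (adjusted p = 0.00128), the second highest step of the list.

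MMRN2 (100064336), the multimerin of the endothelial matrix, rose from 16.3 ± 3.55 to 31.8 ± 6.17 CPM, and EGFL7 (100066378), a secreted protein that guides vessel tube formation, from 25.9 ± 4.35 to 46.9 ± 5.71 CPM. ESM1 (100052185), endocan of sprouting tip cells, gave 0 to 2 counts in 7 libraries and 7 counts in the pregnant library of mare 2, and was not tested. ESM1 overlaps GZMK, a granzyme of lymphocytes, in the RefSeq gene table. GZMK was highest in that same library, at 6.96 CPM against 2.20 to 5.80 CPM in the others. GZMK itself rose, with 2.20 to 3.47 CPM in the cycle and 4.67 to 6.96 CPM in pregnancy (log2 fold change 0.89, adjusted p = 0.0210). Whether reads of GZMK enter the ESM1 count was not tested.

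Both remaining cytoplasmic and caveolar members rose, by less than the median of the called genes. PLVAP (100147156), which forms the diaphragms of fenestrae and caveolae, had 73.9, 83.3, 53.7 and 56.8 CPM in cyclic libraries and 109.7, 83.5, 78.2 and 74.3 CPM in pregnant ones. In mare 2 the 2 states were level, and the PLVAP call (log2 fold change 0.38 ± 0.10, adjusted p = 0.0281) was lost without mare 1, 3 or 4 (up to 0.138) and without the mare block (0.292). RASIP1 (100054403), a Ras-interacting protein needed for the vessel lumen, rose 1.43-fold (adjusted p = 0.00631, and 0.141 in the fit with no mare block). MAMSTR, which overlaps RASIP1 in the gene table, had a log2 fold change of 0.13 (adjusted p = 0.285).

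Of the 5 transcription regulators, 4 rose. ERG (100051563), an ETS factor that maintains endothelial identity, had 5.92, 5.84, 4.97 and 6.13 CPM in cyclic libraries and 13.2, 7.99, 12.2 and 10.5 CPM in pregnant ones (log2 fold change 0.92 ± 0.16, adjusted p = 0.00475). FLI1 (100064591), a related ETS factor of endothelium and blood cells, rose from 13.4 ± 0.665 to 19.2 ± 1.57 CPM with little spread between mares (0.52 ± 0.09, adjusted p = 0.00503). TAL1 (100063826), a helix-loop-helix factor of blood and endothelium, had 2.13, 2.33, 3.73 and 4.83 CPM in cyclic libraries and 6.46, 5.67, 6.07 and 7.05 CPM in pregnant ones. The pregnant values of TAL1 all lay above the cyclic ones (0.99 ± 0.20, adjusted p = 0.0106), and the call was lost without mare 1 (0.0544) and without the mare block (0.0895).

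EPAS1 (100068622), the hypoxia-inducible factor HIF-2 alpha, had 321.9 ± 69.1 CPM in cyclic libraries and 416.6 ± 68.4 CPM in pregnant ones, higher in 4 of 4 mares with overlapping groups (adjusted p = 0.0232). The EPAS1 call was lost without mare 1, without mare 4 and without the mare block (adjusted p up to 0.290). LMO2 (100060270), the adaptor that binds TAL1, had 78.8, 68.0, 36.3 and 91.3 CPM in cyclic libraries and 76.3, 60.8, 36.5 and 67.6 CPM in pregnant ones. It was the 1 tested gene whose estimate lay below 0 (-0.16 ± 0.08, adjusted p = 0.222). The mares differed in LMO2 as they did in ROBO4, with mare 3 lowest in both states (adjusted p = 0.00181 for the mare terms).

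**Figure D3:**
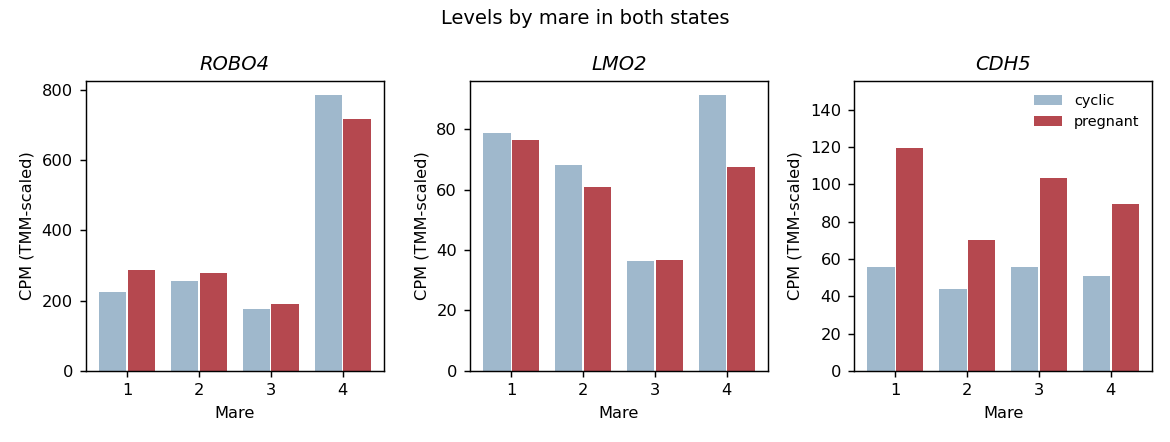
TMM-scaled CPM of ROBO4, LMO2 and CDH5 in each mare, with bars for the cyclic and the pregnant library. ROBO4 was highest in both libraries of mare 4 and LMO2 lowest in both of mare 3, while CDH5 was higher in pregnancy in each mare.

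Differences between mares were present in 7 of the 32 genes, against 15.9% of all tested genes. Besides ROBO4 and LMO2 these were CLDN5, CDH5, CD34, VWF and EPAS1, with adjusted p from 0.0237 to 0.0492, and each of these 5 also rose in pregnancy. Without mare 1 the count was 3, without mare 3 it was 4, and with library totals in place of TMM it was 5. Such counts are near the share over all genes and are not read as a trait of the list. The size of the shift varied with the mare: the median log2 ratio over the 32 genes was 0.83 in mare 1, 0.77 in mare 2, 0.70 in mare 3 and 0.53 in mare 4, while the median over all tested genes stayed between -0.0142 and 0.00967. In mares 1 to 4, 30, 30, 31 and 28 of the 32 genes were higher in pregnancy.

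The lymphatic markers LYVE1 and PROX1 did not pass. LYVE1 (100055858), the hyaluronan receptor of lymphatic endothelium, had 9.08, 6.60, 6.83 and 9.17 CPM in cyclic libraries and 10.9, 12.8, 10.3 and 9.53 CPM in pregnant ones (adjusted p = 0.0711). The pregnant values of LYVE1 all lay above the cyclic ones, and it passed without mare 4 (0.0443) and with library totals in place of TMM (0.0438). PROX1 (100050316), the factor that sets lymphatic identity, had 0.251 to 0.902 CPM in the cycle and 0.296 to 1.16 CPM in pregnancy, higher in 2 of 4 mares (adjusted p = 0.413). Among 9 further tested lymphatic genes, 4 rose (44.4%, against 8.53% of all tested genes) and 0 fell. The risers were FLT4, the receptor VEGFR3 (2.19-fold), its ligand VEGFC (2.09-fold), the mucin-type protein PDPN (2.53-fold), which other cell types also express, and NRP2, a co-receptor of VEGF (1.77-fold). In the fit with no mare block 1 of these passed.

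Further endothelial genes, from a list that does not share members with the first, moved the same way. This list too was chosen with earlier results of these data known. It was tested in the same fit on the same 8 libraries and is not an independent check. Of 44 tested, 28 rose (63.6%) and 0 fell, against 8.53% and 8.19% of all tested genes, with a median log2 fold change of 0.61. The risers FLT4 and PTPRB of this list are counted again among the lymphatic genes and the partners of the members. MCAM, an adhesion molecule of vessels (log2 fold change 1.23 ± 0.13), GJA5, the arterial connexin 40 (1.42 ± 0.17), CAVIN2 of caveolae (0.81 ± 0.09) and LDB2, an adaptor of transcription complexes (0.59 ± 0.06), had the smallest p. The count was 16 without mare 1 and 9 in the fit with no mare block. The 17 arterial and venous genes summed to 1116 to 1468 CPM in the cycle and 1209 to 1346 CPM in pregnancy. Of them, 8 rose (47.1%) and 0 fell. Those with the smallest p were the Notch ligand JAG1 (1.53-fold), the Notch receptor NOTCH4 (1.48-fold), NRP1 (1.42-fold) and the venous factor NR2F2 (1.38-fold). That count fell to 3 without mare 1, to 5 without mare 2 or 4 and to 0 in edgeR with no mare block, where 7 had an unadjusted p under 0.05; DESeq2 with the block called 7. In the further endothelial, arterial and venous, lymphatic and blood lists, 0 genes were lower at an unadjusted p under 0.05 in edgeR and 0 fell by DESeq2.

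Among binding partners and pathway neighbours of the member proteins, 9 of 28 were higher (32.1%), 2 were lower and the median was 0.18. Over all tested genes 8.53% rose and 8.19% fell, so the 2 fallers are near the share over all genes. SVEP1, a matrix protein that binds TIE1 (1.82-fold), the TGF-beta receptor TGFBR2 (1.39-fold) and SGPL1, the lyase that breaks down sphingosine 1-phosphate (1.29-fold), rose. The fallers were BMPR2, a receptor that signals with endoglin (log2 fold change -0.69 ± 0.12, adjusted p = 0.00616), and SPHK1, the kinase that makes sphingosine 1-phosphate (-1.02 ± 0.18, adjusted p = 0.0143). SPHK1 is named after its values were seen. It had 59.3, 61.7, 97.8 and 49.8 CPM in cyclic libraries and 38.7, 21.3, 39.5 and 32.1 CPM in pregnant ones. This was opposite in direction to the receptor S1PR1. SPHK2, a second kinase that makes this lipid, had 653 to 1095 counts per library and was not among the fallers. The lipid itself was not measured. The count of 11 partners called was 4 without mare 1, 7 without mare 4 and 1 with no mare block, where BMPR2 and SPHK1 did not pass.

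Markers of other cells in the wall and around the vessels moved as well. Over all tested genes 8.53% rose and 8.19% fell, and the 1 pericyte and smooth muscle faller is near that share. Of 17 pericyte and smooth muscle genes, 9 rose and 1 fell, with a median of 0.70. Their summed level was 708 to 1062 CPM in the cycle and 1040 to 1630 CPM in pregnancy. By DESeq2 and by limma-voom, 12 of the 17 rose. Without mare 4, 13 of them rose, beside 23 of the 32 endothelial members. PDGFRB, RGS5, LMOD1 and CNN1 rose 1.62-fold, 1.55-fold, 1.77-fold and 4.75-fold, and PLN, named after its value was seen, fell by 1.07 on the log2 scale. Of 22 stromal fibroblast genes, 12 rose and 0 fell (7 without mare 1), with a median of 0.41, and their summed level was 4501 to 5906 CPM and 5272 to 6151 CPM; DPT, MFAP4, SCARA5 and ASPN had the smallest p, with rises of 1.59-fold to 2.40-fold. Of 22 epithelial genes, 1 rose and 5 fell (median -0.07; summed level 3066 to 3589 CPM and 2940 to 3348 CPM), among them MUC1 higher and KRT7, PROM1 and KRT18 lower. The epithelial count was 3 without mare 1 or mare 4. In edgeR with no mare block, 5 of the pericyte and smooth muscle genes, 4 of the stromal and 0 of the epithelial ones passed, with 5 epithelial genes at an unadjusted p under 0.05; DESeq2 with the block called 7 epithelial genes. Of the stromal genes, 2 were lower at an unadjusted p under 0.05 in edgeR, and 0 fell by DESeq2. The part of these cells in the endothelial result was not tested.

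Blood in the biopsies was also checked, since PECAM1, VWF, CD34, FLI1, TAL1, LMO2 and MMRN1 are expressed in blood cells, platelets or their progenitors. Of 16 blood cell and platelet genes, 14 were matched, and their summed level was 115 to 176 CPM in the cycle and 150 to 173 CPM in pregnancy. The platelet chemokine PPBP and the red cell genes ALAS2 and SLC4A1 had 0 counts in all 8 libraries, a count that allows up to 3 per library, and HBB had at most 2. The red cell gene EPB42 had 3 to 10 counts per library, and the platelet genes GP1BA and GP9 had 6 to 25 and 2 to 13. The median log2 fold change of the 7 tested was 0.50. Of the 7, 2 rose (28.6%, against 8.53% of all tested genes): CD14 of monocytes (1.47-fold) and CD79A of B cells (2.90-fold, from a cyclic range of 0.251 to 0.811 CPM). In the fit with no mare block 1 of the 7 passed. The platelet integrin ITGA2B was at 25.5 to 34.3 CPM in the cycle and 24.9 to 29.0 CPM in pregnancy (adjusted p = 0.282). PTPRC, the leukocyte marker CD45, was at 14.3 to 24.5 and 16.5 to 27.1 CPM (adjusted p = 0.492). Both were named after their values were seen, from 7 tested genes whose log2 fold changes ran from -0.15 to 1.54. With a list median of 0.50, these 2 do not show that leukocyte or platelet RNA was unchanged. CSF1R, with the highest total count of the list, CD3E and the remaining tested gene did not pass either and are not described. GZMK of lymphocytes, outside this list, rose (adjusted p = 0.0210 in the same fit).

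**Figure D4:**
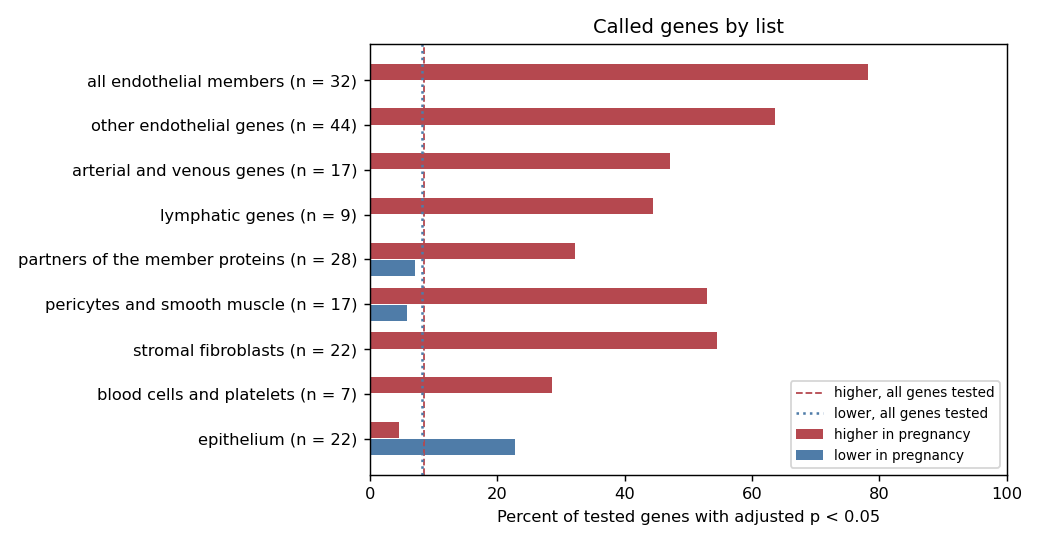
Percent of tested genes with adjusted p below 0.05 in each gene list, higher (red) and lower (blue) in pregnancy, with n tested in brackets and dashed and dotted lines for the shares over all 15342 genes. In this fit the endothelial members and the further endothelial genes have the largest shares of risers, at 78.1% and 63.6%. That order depends on the fit: by DESeq2, 12 of 17 pericyte and smooth muscle genes rose, against 26 of 44 further endothelial genes. Epithelium is the 1 list with more fallers than risers.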

How the data were processed

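The authors deposited raw read counts for 24942 Gene IDs in 8 libraries, and scaled signal values for 14037 of them. Tested on the values, the signal of a deposited library is its count times 1 factor. That table served only for its gene set, in 1 alternative. The submitters' processing notes list Trimmomatic 0.32.2 and HISAT2 2.0.3; build, annotation and counter are not given in these sources. The RNA, with integrity numbers of 8.3 to 9.2, was poly(A)-selected and the kit, as described in the labels' protocols, does not mark strand. Columns left unused: 0.

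Symbols came from RefSeq genes of a telomere-to-telomere horse genome (21420 IDs matched, 85.9%). There, 8 of the 34 members overlap another counted gene. Where exons of such pairs overlap, unstranded reads cannot be told apart, and exon overlap was not tested. ANGPT2 overlaps MCPH1, EGFL7 overlaps MIR126, ICAM2 overlaps PRR29, MMRN2 overlaps SNCG, and ESAM and FLI1 overlap unnamed genes, beside RASIP1 and ESM1.

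The count test was that of edgeR 4.0.16 in R 4.3.3 (filterByExpr, minimum count 10; TMM; robust quasi-likelihood F-test; Benjamini-Hochberg over 15342 genes) in a model of mare and state. Every mare gave both biopsies, per the series' design text, and same-mare libraries deviated together (correlation across genes 0.377 to 0.536; at most -0.0152 between mares). The SE is the log2 fold change divided by the square root of F. Alternatives included DESeq2 1.42.0 and limma-voom 3.58.1. On simulated data (3 draws, 200 of 15342 genes changed) the comparison of the 2 states recovered 58.2% of 1.5-fold, 90.5% of 2-fold and 99.5% of 4-fold changes, with 3.49% of calls false. The changed genes were drawn from better-counted genes, and the simulated spread was set by expression level alone, not gene by gene. Far fewer genes were changed than the 16.7% called in the data, so these rates need not hold for the data.

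The members and lists were chosen with earlier results of these data known. Named are all members and, from each other list, at most 4 called genes with the smallest p. SPHK1, PLN and the uncalled blood genes were named after their values were seen. ANGPT4 and SPHK2 were named for their roles beside ANGPT2 and SPHK1. A planned motif search in promoters was not run, since no sequence was used here. The 4 biopsies of a group came from separate mares. The bound of 3 for a count of 0 covers counting error only, while the SE and SD values also hold variation between biopsies.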

Additional observations from a re-analysis of the deposited data

Results flagged for a closer look

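Of 68 sets of 4 libraries (34 genes in 2 states), 4 held a library whose gap to its nearest neighbour took up more of the range than Dixon's test allows at the 95% level, which by chance happens in about 1 in 20. ROBO4 had 786.3 CPM in the cyclic library of mare 4, against 175.7 to 256.2 CPM in the other mares. The pregnant library of mare 4 was also the highest, at 717.4 CPM, so both samples of this mare carried the high level. MMRN2 had 40.96 CPM in the pregnant library of mare 1, the shallowest library, against 27.8 to 29.8 CPM in the others, and its call passed without mare 1. ANGPT1 had 0.0644 CPM in the cyclic library of mare 1, which is 1 count, against 0.248 to 0.251 CPM. ESM1 had 0.451 CPM in the pregnant library of mare 2, which is 7 counts, against 0 to 0.0592 CPM.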

How the results depend on the processing

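Counts of called genes and the tested members were recomputed under 12 alternatives, apart from PROX1, which 8 of them kept. Differences between mares had 9 alternatives, since the fits with no block, DESeq2 and limma-voom gave none, and the ratios between genes had 4, each without 1 mare. For single endothelial genes, 348 of 380 values kept their direction and their side of the threshold, 27 lost the call, 5 gained it and 0 reversed. Of the 25 called genes, 16 passed in every alternative, and 19 did so when the fit without the mare block is set aside. Without the mare as replicate block, 16 endothelial members, 9 other endothelial, 0 arterial and venous, 1 lymphatic, 1 partner, 1 blood, 5 pericyte and smooth muscle, 4 stromal and 0 epithelial genes passed, and 389 of all genes. Within the genes of the authors' scaled table, 1 blood gene passed. Leaving out 1 mare at a time gave 19 to 24 members and 1266 to 2057 of all genes. In the other lists it gave 16 to 27 other endothelial, 3 to 6 arterial and venous and 4 to 9 partner genes. It also gave 7 to 14 pericyte and smooth muscle, 7 to 10 stromal and 3 to 6 epithelial genes. Members that differed between mares numbered 3 to 6. The lowest of each came without mare 1, which holds the shallowest library, and for epithelium also without mare 4; the cause was not tested. With no block, the differences between mares enter the error. ANGPT1, ESM1 and PROX1 had at most 18 counts per library.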
